A study of Mus musculus with 26 samples.

Results

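The nuclear genes for subunits of the mitochondrial respiratory chain and the ATP synthase were followed through oocytes and early embryos of the mouse with and without maternal KDM3A and KDM3B. Members were chosen by gene symbol alone: symbols starting Nduf with a subunit letter and number, the Sdh genes, and those starting Uqcr, Cox with a number from 4 to 8, or Atp5. The rule found 84 of the 24412 symbols in the tables. They comprised 7 core and 28 accessory subunits of complex I (NADH dehydrogenase), 4 genes of complex II (succinate dehydrogenase), 8 of complex III, 20 of complex IV (cytochrome c oxidase) and 17 named for the ATP synthase. Ndufa4 and Ndufa4l2 were placed with complex IV, where the protein of Ndufa4 is now assigned. Atp5s encodes factor B, which couples the ATP synthase, and Atp5sl is related to Atp5s. RefSeq now lists Atp5s as Dmac2l and Atp5sl as Dmac2. Both are counted with the ATP synthase here by symbol only, and Atp5sl is not taken as a subunit of it.

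The respiratory chain passes electrons from NADH through complex I, or from succinate through complex II, to ubiquinone. Complex III hands them to cytochrome c and complex IV to oxygen, and the protons pumped on the way drive the ATP synthase. A mammalian egg carries a very large store of mitochondria, and the preimplantation embryo oxidises mainly pyruvate. A minority of subunits of complexes I, III, IV and the ATP synthase are encoded by mitochondrial DNA. The tables used here hold 0 of those 13 genes, and they were not analysed here.

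RNA had been measured in 26 libraries of pooled C57BL/6J oocytes or embryos, 2 libraries in each of 13 groups. Females carried Zp3-Cre, which is active in growing oocytes, with floxed alleles of both demethylase genes (Kdm3a f/f, Kdm3b f/f). Their oocytes were fertilised in vitro by wild-type sperm, so the knockout is maternal and the zygote gains a paternal copy of each gene. These are called mDKO (the late 2-cell titles read DKO, beside a genotype label of maternal DKO), and the others control, a genotype that the labels give by that word only. Without injection, control and mDKO were sampled at 3 stages: the MII oocyte and the early (E2C) and late (L2C) 2-cell embryo. Injected embryos were also sampled at E2C: control with mCherry, and mDKO with mCherry, Kdm3aWT or Kdm3aHA. The sample titles do not give the time of injection. Wild-type embryos injected with mCherry, Kdm3aWT or Kdm3aHA were taken at the 4-cell stage (4C). The sources used here do not say what HA stands for. Each library came from 12 to 20 pooled oocytes or embryos, 20 at L2C.

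Values are TPM, a library's RNA shared out per transcript length to a fixed total, so the files do not show read depth and allow no counting interval. TPM compares genes within a library, and a rise of 1 gene lowers the others. Because each library is a pool, fewer cells and less RNA per cell cannot be told apart. Fold changes are given on the scale of log2(TPM + 1) with their standard error, which rests on all libraries fitted. Each compares 2 libraries with 2, except the difference of the mDKO effect between stages, which joins the control and mDKO pairs of both. A gene is said to rise or fall only where limma gave an adjusted p under 0.05. In MII oocytes Kdm3a was at 8.08 and 8.83 TPM in the controls and at 0.725 and 0.718 in mDKO, and at E2C at 2.59 and 2.07 against 0.642 and 0.557. At L2C Kdm3a was at 34.1 and 43.8 TPM in the controls and 28.4 and 26.3 in mDKO, lower without overlap but above the level of control oocytes. Kdm3b was at 3.06 and 3.70 against 0.651 and 1.79 there. In mDKO embryos given Kdm3aWT or Kdm3aHA, Kdm3a reached 2315 to 4122 TPM. Oocyte genes (8 of 8 listed) summed to between 37111 and 44973 TPM in MII libraries and to between 38.1 and 109 at 4C. Replicates correlated across genes with r from 0.968 to 0.995, genes not being independent replicates. The 4C mCherry pair stood apart: its replicates differed over the members by a median of 0.56 on the log2 scale, against 0.14 to 0.34 in the other groups.

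Promoter sequence was available from RefSeq (GRCm38.p6) for 69 of the 84 members, as windows of 300 bases that end 50 bases after the start site. The core of the site bound by NRF1, a factor known for respiratory genes, GCATGCGC, was found on either strand in 10 member windows (14.5%) and in 3.05% of 27025 genes with a window. AAGATGGC, read by YY1, was in 11 (15.9%, against 3.19%), and the ETS-type core CCGGAAGT in 5 (7.25%, against 4.31%). Such matches are a description of letters, not of bound sites. Of the 10 members with the NRF1 core, 5 fell and 3 rose in mDKO L2C embryos, as against 31 and 9 of all 69 with a window. The 200 bases before the start site are shown for the 4 in which the core matched on both strands at once within those bases, with the overlapping matches in capitals. Atp5k (chr5:108434400-108434599, minus strand), Ndufa11 (chr17:56717562-56717761, plus strand) and Cox6a1 (chr5:115348959-115349158, minus strand) fell, and Atp5g2 (chr15:102671048-102671247, minus strand) rose at L2C, although their matches share the same letters.
Atp5k: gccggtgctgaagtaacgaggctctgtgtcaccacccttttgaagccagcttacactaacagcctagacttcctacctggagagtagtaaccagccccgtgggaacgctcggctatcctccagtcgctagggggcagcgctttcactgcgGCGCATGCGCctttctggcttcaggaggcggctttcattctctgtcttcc
Ndufa11: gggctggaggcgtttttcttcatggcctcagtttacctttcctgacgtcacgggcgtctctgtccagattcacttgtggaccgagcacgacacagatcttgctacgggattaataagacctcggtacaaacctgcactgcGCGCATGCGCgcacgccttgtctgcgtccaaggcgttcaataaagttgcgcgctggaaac
Cox6a1: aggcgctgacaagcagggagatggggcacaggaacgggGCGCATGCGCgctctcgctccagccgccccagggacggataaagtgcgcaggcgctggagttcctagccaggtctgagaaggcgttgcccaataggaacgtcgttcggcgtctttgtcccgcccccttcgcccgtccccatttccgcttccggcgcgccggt
Atp5g2: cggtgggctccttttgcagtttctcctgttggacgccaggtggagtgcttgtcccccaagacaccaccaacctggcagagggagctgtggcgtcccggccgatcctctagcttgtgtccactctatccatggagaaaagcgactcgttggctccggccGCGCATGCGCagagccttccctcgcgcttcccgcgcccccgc

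Cox6b1 and Cox6b2 encode alternative forms of the same complex IV subunit. Cox6b1 is the widespread form and Cox6b2 is known as the testis form. They are the pair that differed in opposite directions in mDKO oocytes, so the 200 bases before each start are shown with every CpG, the dinucleotide that can be methylated, in capitals. Cox6b2 (gene at chromosome 7, 4751792 to 4753094, window chr7:4753095-4753294, minus strand) holds 8 CpG. Cox6b1 (gene at chromosome 7, 30616971 to 30626114, window chr7:30626115-30626314, minus strand) holds 13. Over the 300 bases, the observed over the expected CpG was 0.43 in Cox6b2 and 0.81 in Cox6b1, against a median of 0.81 over the 69 member windows and 0.38 over 32851 windows of all genes.
Cox6b2: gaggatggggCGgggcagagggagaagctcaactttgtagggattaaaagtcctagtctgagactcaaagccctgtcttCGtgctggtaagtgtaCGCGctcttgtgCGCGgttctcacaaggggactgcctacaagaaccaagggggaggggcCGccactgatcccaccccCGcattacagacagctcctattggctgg
Cox6b1: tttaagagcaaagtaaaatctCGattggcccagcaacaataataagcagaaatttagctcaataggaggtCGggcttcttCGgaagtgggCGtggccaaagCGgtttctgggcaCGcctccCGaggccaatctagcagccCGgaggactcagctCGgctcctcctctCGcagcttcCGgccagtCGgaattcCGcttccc

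Together the 84 genes took a larger share of all TPM in later stages. Library kits differed between MII and E2C and are not given for L2C, so stage and kit cannot be told apart here. They held 0.433% to 0.486% in control MII oocytes, 1.63% to 1.75% in control E2C and 2.66% to 2.90% in control L2C embryos. The mDKO libraries stood above control at MII (0.544% to 0.621%), touched it at E2C (1.63% to 1.64%) and stood below it at L2C (2.12% to 2.18%). Wild-type 4C embryos had the highest shares, from 3.07% to 4.86%. Tables of injected and uninjected libraries were made separately, so levels set across them are descriptions.

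Levels differed widely inside each complex. Cox8a, a small complex IV subunit, had the highest median over the 26 libraries at 1677 TPM (467 to 4156), followed by Cox5a at 1188 TPM. Atp5b, the catalytic beta subunit of the ATP synthase, had a median of 524 TPM, Uqcrh of complex III 480, Ndufb6 of complex I 352 and Sdha, the flavoprotein of complex II, 86.3. The core subunits of complex I were low, from a median of 4.88 TPM for Ndufv1 to 63.4 for Ndufs3. Cox8b, a muscle form, was listed at 0 in 25 of 26 libraries.

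**Figure D1:**
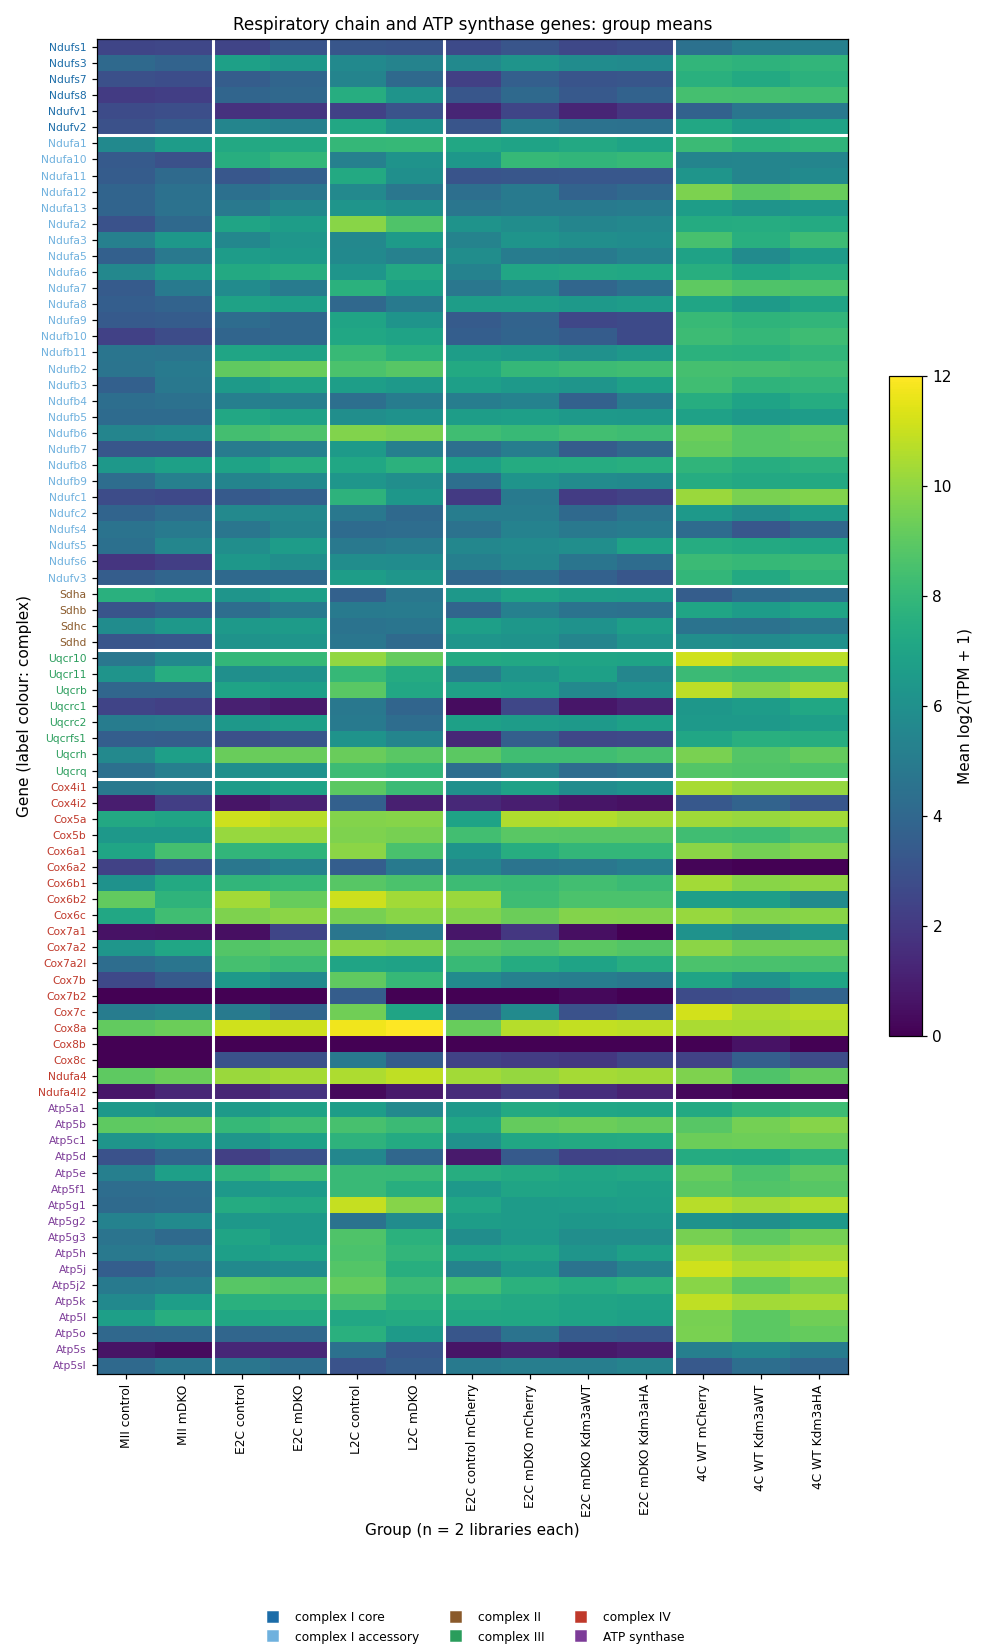
Mean expression of 83 of the 84 genes (rows, ordered by complex) in the 13 groups (columns), coloured by the mean of log2(TPM + 1) over 2 libraries. Brighter colours are higher levels. Complex IV holds the brightest row, Cox8a, beside dark rows such as Cox8b, and many rows, such as Cox7c and Uqcr10, are brighter at the 4-cell stage than in MII oocytes.

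In MII oocytes the clearest effect of the maternal knockout was a fall of Cox6b2, beside a rise of Cox6b1 that was smaller in TPM. Cox6b2 stood at 574 and 541 TPM in the control libraries and at 230 and 217 in mDKO. All mDKO values lay below all control values, a log2 fold change of -1.31 ± 0.08 (adjusted p = 0.00484). Cox6b1 stood at 65.1 and 74.1 TPM in the controls and at 193 and 127 in mDKO, higher by 1.16 ± 0.21 (adjusted p = 0.0481). The Cox6b1 call was lost in 5 of 9 alternatives. Cox6b2 made up 89.8% and 88.0% of the TPM of the pair in control oocytes and 54.3% and 63.1% in mDKO.

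The other 4 genes that rose at MII encode small structural subunits. Uqcr11 of complex III rose from 80.3 and 67.0 TPM in control to 195 and 156 in mDKO, by 1.24 ± 0.15 (adjusted p = 0.0190). Uqcrh, the hinge protein of complex III, went from 55.0 and 44.4 to 124 and 93.7 (1.11 ± 0.18, adjusted p = 0.0371). Neither gene overlapped between the genotypes. Cox6c of complex IV rose by 1.14 ± 0.16 and Atp5k, subunit e of the ATP synthase, by 1.03 ± 0.17. In all, 5 of 79 tested members rose, where 0.845% of all genes tested did, and 1 fell, where 3.41% did. The median member was at 0.35 and the median gene at -0.05. No complex I or II gene was called, and 63 of the 79 members had a positive fold change, as had 4774 of all 10765 genes tested.

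The rises at MII were less firm than the fall of Cox6b2. Only Cox6b2 was called when genes with low values were kept in, or when mDKO replicate 1 was left out, and without control replicate 2 only 1 member was called higher. Without control replicate 1 there were 8. With the replicate number as a block 31 members rose and 2 fell, and with all 12 uninjected libraries in 1 fit 18 rose. Cumulus and granulosa cell genes (14 of 14 listed) summed to between 903 and 1028 TPM in the controls and between 939 and 1000 in mDKO oocytes. Most of these sums was Serpine2, at 820 and 882 TPM in the controls and 830 and 863 in mDKO.

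Early 2-cell embryos showed few differences, and these were spread over single subunits. Cox6b2 remained the member with the largest fall: 1295 and 1317 TPM in control, 609 and 564 in mDKO (-1.15 ± 0.11, adjusted p = 4.88e-04). The groups did not overlap. Cox6b1 was at 270 and 203 TPM against 243 and 289 and was not called (0.18 ± 0.17).

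Ndufa13, Ndufb8 and Ndufs4, accessory subunits of complex I, rose by 0.73 ± 0.17, 0.54 ± 0.14 and 0.74 ± 0.19. Atp5e, the epsilon subunit of the ATP synthase, rose by 0.49 ± 0.13. Cox7a1, a complex IV form of heart and muscle, was at 0 and 1.02 TPM in the controls and 5.81 and 3.77 in mDKO (2.00, called higher). Lower were Ndufa7 of complex I (-0.83 ± 0.19), Cox7b (-0.79 ± 0.16) and Cox5a (-0.36 ± 0.10), both of complex IV. The Cox5a call was lost in 5 of 9 alternatives (adjusted p up to 0.279). Thus 6 of 81 members rose, beside 5.38% of all genes tested, and 4 fell, beside 8.99%. The shares for the members were close to that background.

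Leaving out either control library at E2C reduced the calls to 1 higher without replicate 1 and 2 higher without replicate 2, with 1 lower in each case. Without mDKO replicate 1 there were 13 higher, and without mDKO replicate 2 there were 11 higher and 7 lower. With low values kept in, 1 rose and 1 fell, and with the replicate block 14 rose and 7 fell. Genes of the oocyte list summed to between 6107 and 6411 TPM in the controls and between 9633 and 10529 in mDKO. Genes marking early 2-cell embryos (6 of 6 listed) summed to between 1175 and 1706 against 264 to 297. Cumulus and granulosa genes summed to between 112 and 117 against 196 to 235, mostly Serpine2 (89.2 and 85.1 against 166 and 202). Amh and Inhbb were at 0 in both. Sperm and spermatid genes (8 of 8 listed) summed to between 37.9 and 52.6 TPM against 13.4 to 13.7, with Prm1, Tnp2 and Gapdhs at 0 in both, and blood cell genes to between 12.2 and 19.7 against 1.3 to 1.75, with Hbb-bs and Hbb-bt at 0. The part of these in the member values was not tested.

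By the late 2-cell stage much of the respiratory chain was lower in mDKO embryos. Most genes of complex III and the ATP synthase fell, some accessory subunits of complex I rose, and no gene of complex II was called lower. Of 82 members tested, 38 fell, where 23.3% of all genes tested did, and 10 rose, where 19.1% did. The median member was at -0.40 and the median of all genes at 0.00.

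All 8 genes of complex III had negative fold changes and 6 were called lower. Uqcrb, the ubiquinone-binding protein of the complex, was at 482 and 503 TPM in the controls and 141 and 151 in mDKO (-1.75 ± 0.11, adjusted p = 1.75e-04). No mDKO value came near the controls. Uqcr10 fell from 1033 and 1078 TPM to 586 and 567 (-0.87 ± 0.10), and Uqcrc1, a core subunit, from 26 and 28.1 to 13.3 and 14.8 (-0.90 ± 0.17). Uqcrfs1, the Rieske iron-sulfur protein, fell by 0.70 on the log2 scale. Uqcrc2, the partner core subunit, and Uqcrq were not called.

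Among ATP synthase genes 12 of 17 fell and 1 rose, with a median of -0.74. Atp5d, the delta subunit of the rotor, was at 36.0 and 57.1 TPM in the controls and 14.2 and 15.9 in mDKO (-1.53 ± 0.23, adjusted p = 0.00223). Atp5j, coupling factor 6, went from 436 and 450 to 174 and 198 (-1.25 ± 0.11, adjusted p = 3.89e-04), and Atp5s from 20.2 and 22.6 to 7.49 and 9.94 (-1.21 ± 0.20). Groups did not overlap for any of the 3. Atp5b, the beta subunit, was not called, with 340 and 398 TPM in control against 289 and 292, while its partner alpha, Atp5a1, fell by 1.04 on the log2 scale.

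The c-ring of the ATP synthase is built from a single mature protein encoded by 3 genes, and these moved apart. Atp5g1 fell from 1827 and 2147 TPM to 967 and 854 (-1.12 ± 0.12), and Atp5g3 from 415 and 401 to 210 and 196, without overlap. Atp5g2 rose from 18.5 and 28.1 TPM to 40.9 and 74.4 (1.24 ± 0.31, adjusted p = 0.0161). It was not called when low values were kept in (adjusted p = 0.0631) or without control replicate 1 (0.0735). The sum of the 3 was 2260 and 2576 TPM in the controls and 1218 and 1125 in mDKO. Atp5g1 made up 80.8% and 83.3% of that sum in control and 79.4% and 75.9% in mDKO.

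In complex I, 4 of the 7 core subunits fell and none rose, with a median of -1.06. Ndufs7 was at 41.2 and 41.8 TPM in the controls and 15.2 and 17.3 in mDKO (-1.31 ± 0.16, adjusted p = 8.98e-04). Ndufs8, like Ndufs7 an iron-sulfur subunit, fell from 172 and 184 to 75.6 and 71.4 (-1.26 ± 0.12). Both were separated without overlap.

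Accessory subunits went both ways, with 8 of 28 lower, 6 higher and a median of -0.19. Ndufc1 fell from 212 and 223 TPM to 73.3 and 89.9 (-1.41 ± 0.14, adjusted p = 4.46e-04). Ndufa11 and Ndufb7 fell by 1.34 and 1.33 on the log2 scale. Ndufa6 rose from 72.1 and 79.2 TPM to 137 and 163 (0.98 ± 0.14, adjusted p = 0.00167). Ndufa3 and Ndufa10 rose by 0.98 ± 0.24 and 0.92 ± 0.22. The call of Ndufa3 was lost when low values were kept in (adjusted p = 0.0598) or without control replicate 1 (0.0703).

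In complex II, whose subunits also serve the tricarboxylic acid cycle, Sdha rose from 10.4 and 14 TPM in control to 26.1 and 26.3 in mDKO (1.05 ± 0.19, adjusted p = 0.00506). Sdhb, Sdhc and Sdhd were not called. In control embryos Sdha had fallen steeply between the early and the late 2-cell stage, as given with the stage comparison.

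Complex IV had 8 of 18 tested members lower and 2 higher. Cox7c fell from 569 and 790 TPM to 126 and 128 (-2.39 ± 0.16, adjusted p = 1.92e-04), well apart from the controls. Cox6a1, the widespread form of its subunit, fell by 1.36 on the log2 scale, while Cox6a2, the heart and muscle form, rose from 10.8 and 11.3 TPM to 31.7 and 27.7 (1.35 ± 0.17, adjusted p = 0.00110). Cox4i2, the form of subunit 4 known from lung and low oxygen, fell from 13.2 and 10.6 to 1.93 and 0.493 (-2.61 ± 0.35), and Cox4i1 fell by 0.77. Cox7b2 and Cox8c, known as testis forms, were lower too: Cox7b2 was at 6.99 and 15.6 TPM in the controls and listed at 0 in both mDKO libraries (adjusted p = 5.66e-04), and Cox8c fell by 1.32. Ndufa4 rose by 0.37 ± 0.10, a call lost without control replicate 2, without either mDKO library, under size-factor scaling or with low values kept in (adjusted p from 0.0629 to 0.0906).

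Cox8a, the most abundant member, was at 3125 and 3811 TPM in the controls and 4156 and 4022 in mDKO and was not called (0.24 ± 0.12, adjusted p = 0.139). Cox6b2 fell by 0.75 and Cox6b1 was not called (-0.28 ± 0.12).

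The count of falls stayed between 34 and 41 when any library was left out, and rises numbered 6 without mDKO replicate 2 or with low values kept in. Oocyte genes summed to between 3106 and 3437 TPM in control L2C and between 7948 and 8164 in mDKO, and early 2-cell genes to between 595 and 793 against 2006 to 2488. Blood cell genes (8 of 8 listed) summed to between 300 and 354 against 56.8 to 259, with Hbb-bs at 0 in both. These sums joined genes that went opposite ways. Hba-a1 (183 and 312 against 28.9 and 28.9) and Hba-a2 (112 and 37.4 against 21.7 and 25.3) were lower in both mDKO libraries. Lyz2 was higher (4.53 and 4.02 against 6.25 and 205). The top of the mDKO range was thus mostly Lyz2 in replicate 2. The part of these marker genes in the member values was not tested. Of the 84 members, 25 share exon bases with another protein-coding gene, among them Uqcrb, Ndufa11, Cox4i1, Atp5d and Atp5j. For these named members the other gene is on the opposite strand, and the reads cannot be told apart without the strand setting. Atp5j shares bases with Gabpa, given below among the regulators. Ndufb2, Ndufb8, Ndufb9 and Atp5o share bases with a protein-coding gene on the same strand, where a strand setting would not tell reads apart.

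**Figure D2:**
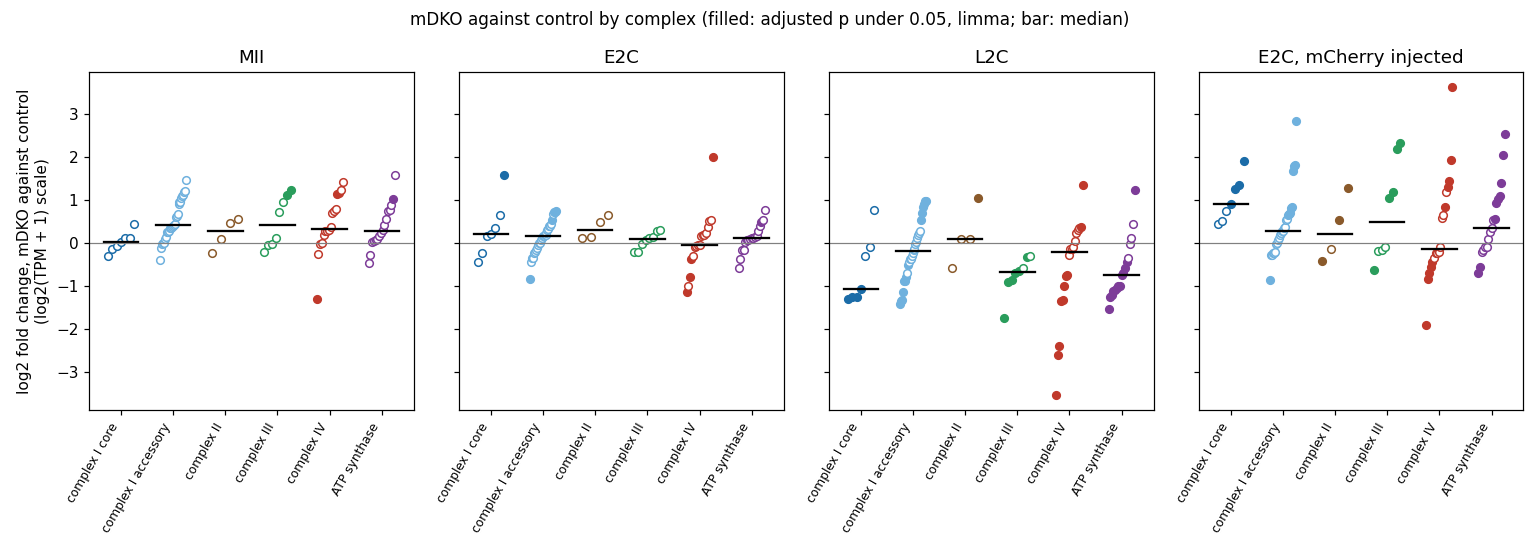
Log2 fold change of mDKO against control (vertical axis, log2 of TPM + 1) for each member by complex at MII, E2C, L2C and in E2C embryos injected with mCherry. Filled points were called and bars mark medians. At L2C complex III and the ATP synthase lie mostly below 0, with medians of -0.68 and -0.74.

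Most members differed between the early and late 2-cell stages in control embryos themselves. The library kit of the L2C samples is not named in the sources, so stage and any difference of kit cannot be told apart. Of 83 tested, 51 rose, where 35.5% of all genes did, and 22 fell, where 30.1% did. The largest rises were of Cox7c, from 31.7 and 27.5 TPM to 569 and 790 (4.46 ± 0.34), and Ndufc1, from 11.7 and 7.98 to 212 and 223 (4.36 ± 0.23). Ndufa11 rose by 4.05, Uqcrc1 by 3.76, Atp5o, the stalk subunit OSCP, by 3.65, Ndufs8 by 3.58 and Atp5g1 by 3.55. Cox7b2 went from 0 in both E2C libraries to the values given above.

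The falls included 3 of the 4 complex II genes. Sdha went from 81.5 and 68.9 TPM to 10.4 and 14 (-2.54 ± 0.18, adjusted p = 3.89e-07), Sdhc fell by 1.87 and Sdhd by 1.46, while Sdhb rose by 0.61 ± 0.20. The Sdhb call was lost without either control E2C library or without control L2C replicate 2 (adjusted p from 0.0597 to 0.192). Ndufa8 fell from 141 and 103 TPM to 16.6 and 14.2 (-2.89 ± 0.19), the steepest fall of any member. Uqcrc2 fell by 1.54 as its partner core subunit rose. Cox7a2l fell by 1.43 and Cox5a by 1.29, both placed here with complex IV. Atp5g2 fell by 1.84 as Atp5g1 rose, so that the share of Atp5g1 in the 3 c-ring genes went from 46.3% and 42.5% to 80.8% and 83.3%.

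The same step in mDKO embryos had 36 rises, beside 31.9% of all genes, and 18 falls, beside 20.8%. Of the 51 that rose in control, 36 rose in mDKO and 15 were not called. Their median rise was 1.97 in control and 0.95 in mDKO, and 46 of the 51 rose less in mDKO. For all 5085 genes that rose in control the medians were 1.68 and 1.17, and 73.2% rose in mDKO. Among the 22 falls 16 were shared, with medians of -1.21 and -0.95, against -1.17 and -0.65 for all 4311 genes that fell. Since both classes were chosen on the control values, a smaller size in mDKO is partly set by the choice.

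Cox7c rose by 3.07 ± 0.34 in mDKO, Ndufc1 by 2.64 ± 0.23, Ndufs8 by 2.15 ± 0.36 and Atp5g1 by 2.59 ± 0.18. Uqcrb, which rose in control, is among those not called in mDKO: 121 and 97.5 TPM at E2C and 141 and 151 at L2C. Atp5a1 fell in mDKO, from 125 and 115 TPM to 49.4 and 48.9 (-1.27 ± 0.15), and was not called in control (0.17 ± 0.15).

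**Figure D3:**
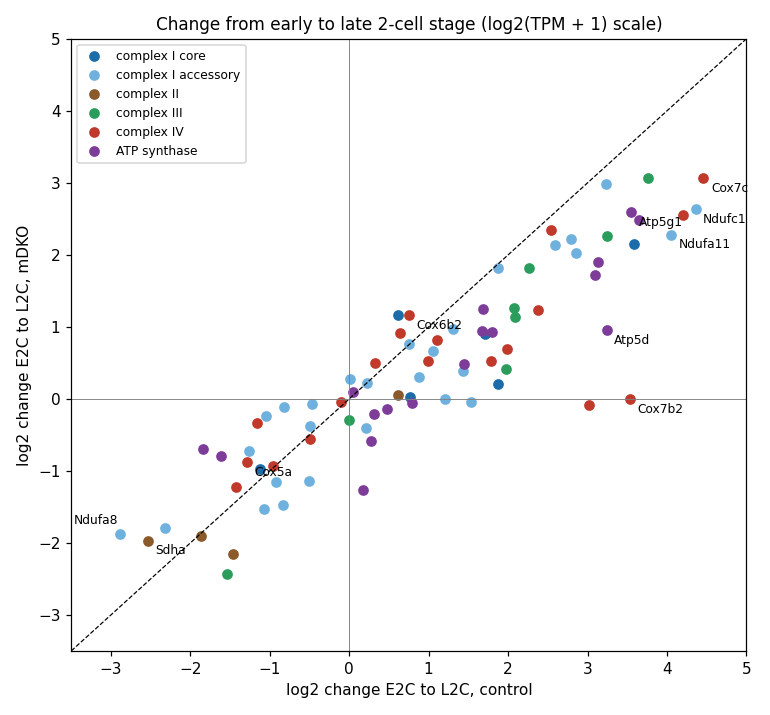
Log2 change from E2C to L2C in control embryos (horizontal axis) against that in mDKO embryos (vertical axis) for each member, coloured by complex, with the dashed line marking equal change. Most genes that rose in control lie under the line, Cox7c and Ndufc1 among them, and the genes that fell lie on both sides of it.

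A direct test of whether the mDKO effect differed between the stages found it lower at L2C than at E2C for 28 of 83 members, where 12.5% of all genes tested were, and higher for 4, where 13.2% were. The ATP synthase gave 12 of the 28 and complex III gave 4. The largest differences were of Cox7b2 (-3.53 ± 0.39) and Cox4i2 (-3.10 ± 0.47), complex IV forms that were low in TPM. Atp5d differed by -2.29 ± 0.37, Ndufa11 by -1.77 ± 0.33, Ndufc1 by -1.71 ± 0.32, Uqcrb by -1.55 ± 0.27 and Atp5a1 by -1.44 ± 0.21. Cox7c missed the threshold (-1.39 ± 0.49, adjusted p = 0.0576).

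On the other side were Ndufa8 (1.01 ± 0.26), Atp5sl (0.83 ± 0.28), Ndufa6 (0.82 ± 0.26) and Cox6b2 (0.41 ± 0.13). Cox6b2 was thus less reduced at L2C than at E2C, though lower at both, and its difference had an adjusted p of 0.284 under size-factor scaling. The higher calls numbered 0 without control E2C replicate 1 or mDKO L2C replicate 2, and the lower calls 18 without control E2C replicate 2, control L2C replicate 2 or mDKO L2C replicate 1.

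**Figure D4:**
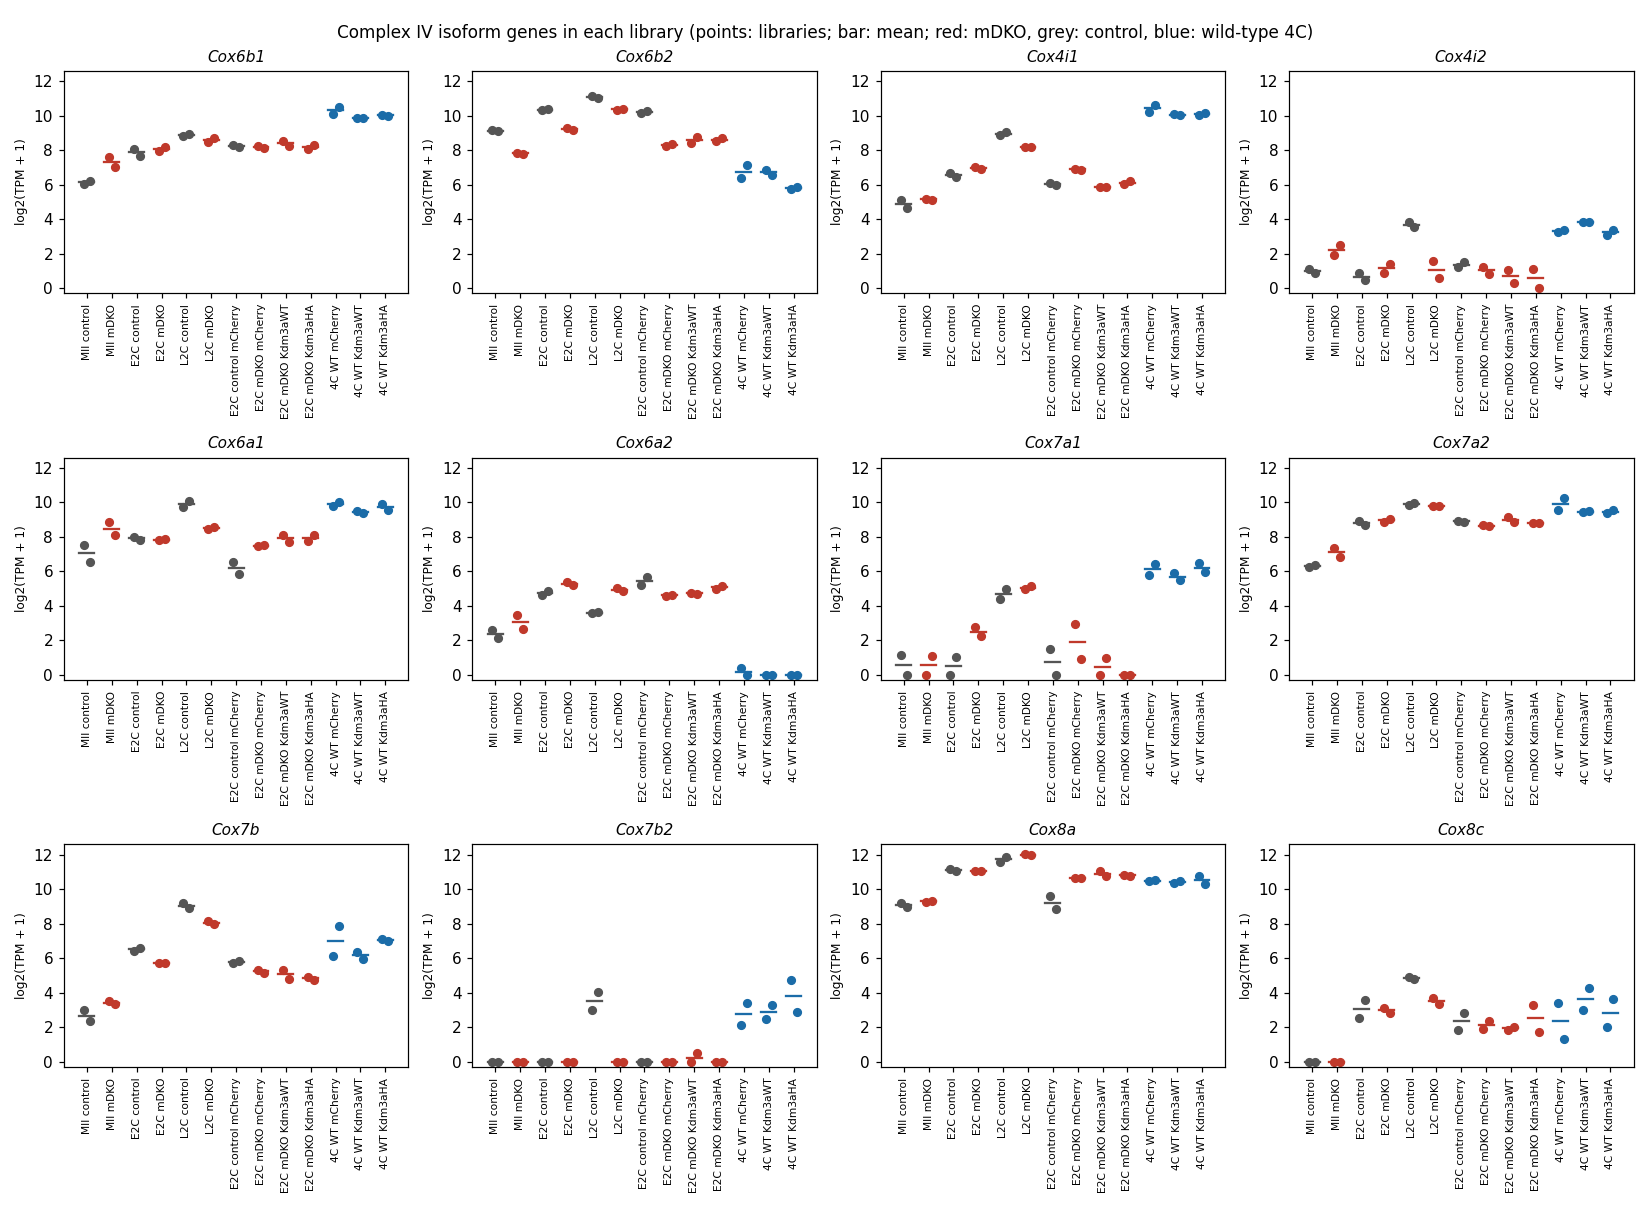
Level of 12 complex IV isoform genes in all 26 libraries (vertical axes, log2(TPM + 1); points are libraries, bars group means; red mDKO, grey control, blue wild-type 4C). Without injection Cox6b2 lies above Cox6b1 at MII, E2C and L2C in both genotypes, and it lies below Cox6b1 at 4C, where it made up 4.70% to 11% of the pair.

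Across the isoform pairs the widespread form usually dominated, and without injection Cox6b was the exception at MII, E2C and L2C. Cox6b2 made up 82.8% and 86.7% of its pair in control E2C embryos and 71.5% and 66.2% in mDKO, and 83.4% and 81.5% against 78.5% and 76.2% at L2C. In injected mDKO E2C libraries Cox6b2 held from 47.9% to 59.3% of the pair. In 4C embryos Cox6b1 reached 932 to 1468 TPM while Cox6b2 lay between 52.7 and 141. Cox6a2 held 8.79% and 10.8% of its pair in control E2C and 1.26% and 1.05% in control L2C embryos, and 8.15% and 6.72% in mDKO L2C. At 4C it was listed at 0 in 5 of 6 libraries. Cox4i2 stayed between 0.169% and 3.38% of its pair in uninjected embryos and control oocytes, and stood at 7.56% and 11.8% in mDKO oocytes (1.23 ± 0.28, adjusted p = 0.0738). Ndufa4l2, known as induced by low oxygen, did not pass 4.04 TPM in any library.

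Injected early 2-cell embryos gave a second look at the genotype, with libraries separate from those above. Here 31 of 82 members were higher in mDKO with mCherry than in control with mCherry, where 26.9% of all genes tested were, and 10 were lower, where 20.0% were. Cox6b2 again fell the most: 1125 and 1208 TPM in control mCherry, 297 and 324 in mDKO mCherry (-1.91 ± 0.13, adjusted p = 1.50e-05). Its share of the Cox6b pair was 78.0% and 80.8% against 50.1% and 54.2%.

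The values are given for 8 of the 31 rises, which were sorted after their values were seen. The other rises were not sorted. For Cox5a, Cox8a, Atp5b and Ndufa10 the control mCherry libraries stood low beside every other E2C group. Cox5a was at 164 and 93.5 TPM in the mCherry controls and 1548 and 1532 in mDKO mCherry (3.63 ± 0.22, adjusted p = 1.08e-05). It was at 1220 to 1695 in the Kdm3aWT and Kdm3aHA groups, and at 2121 and 2155 in control embryos without injection, where mDKO was lower. Atp5b was at 147 and 127 TPM in control mCherry against 576 and 571 (2.06 ± 0.08), and at 264 to 321 in the 4 uninjected libraries. Cox8a rose by 1.45 ± 0.20 and Ndufa10 by 1.69 ± 0.13.

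For Cox7c, Ndufc1, Uqcrfs1 and Atp5d the mDKO mCherry libraries stood above the other 3 injected groups. Cox7c was at 12.3 and 13.2 TPM in the mCherry controls and 57.4 and 46.8 in mDKO mCherry (1.94 ± 0.19, adjusted p = 9.91e-05), against 7.01 to 11.9 in the Kdm3aWT and Kdm3aHA groups. Ndufc1 went from 5.53 and 1.64 TPM to 30.3 and 27.0 (2.84 ± 0.37), Uqcrfs1 from 1.58 and 1.43 to 11.7 and 11.3 (2.32 ± 0.15) and Atp5d from 0.187 and 1.77 to 11.7 and 7.73 (2.54 ± 0.38). The genotypes did not overlap for any of the 4. In mDKO embryos without injection Atp5d was at 6.5 and 8.18 TPM and Cox7c at 8.65 and 23.0.

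By complex, 4 of 7 core and 9 of 28 accessory genes of complex I rose, 4 of 8 in complex III, 5 of 18 in complex IV and 7 of 17 in the ATP synthase. Ndufv2, an iron-sulfur subunit, rose by 1.92, Ndufb9 by 1.82, Ndufa6 by 1.80, Sdhb by 1.29 and Atp5o by 1.39. Falls included Ndufa5 (-0.85), Uqcrh (-0.63), Cox6a2 (-0.84), Cox7a2l (-0.69), Atp5j2 (-0.69), Atp5g1 (-0.55) and Sdhc (-0.42). Sdhc was not called without either control mCherry library or either mDKO library (adjusted p from 0.0527 to 0.175). Ndufs8, Uqcr11, Uqcrq and Cox7a2l were each lost on leaving out at least 1 library, control mCherry replicate 2 or an mDKO mCherry replicate. Ndufs8 was also lost with the replicate block (0.0512).

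Early 2-cell genes summed to between 1461 and 1732 TPM in the mCherry controls and between 362 and 405 in mDKO mCherry. Cumulus and granulosa genes summed to between 77.9 and 85.7 against 344 to 351, mostly Serpine2 (62.2 and 51.2 against 312 and 307), with Ptx3, Amh and Foxl2 at 0 in both. Sperm and spermatid genes summed to between 33.1 and 44.8 against 5.66 to 10.4, with Tnp1 at 0 in both. The control sums were mostly Prm2 (31.4 and 43.2 against 2.82 and 6.93), while Prm1 went the other way (0 and 0 against 1.56 and 1.45). Blood cell genes summed to between 4.11 and 9.07 against 18.5 to 33.6, with Hbb-bs and Hbb-bt at 0 in both. These sums joined genes that went opposite ways. Lyz2 was higher in mDKO mCherry (0.794 and 1.68 against 30.6 and 18.0). Hba-a1, most of the control sums, was lower (6.72 and 2.34 against 0.819 and 0). Their part in the member values was not tested.

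**Figure D5:**
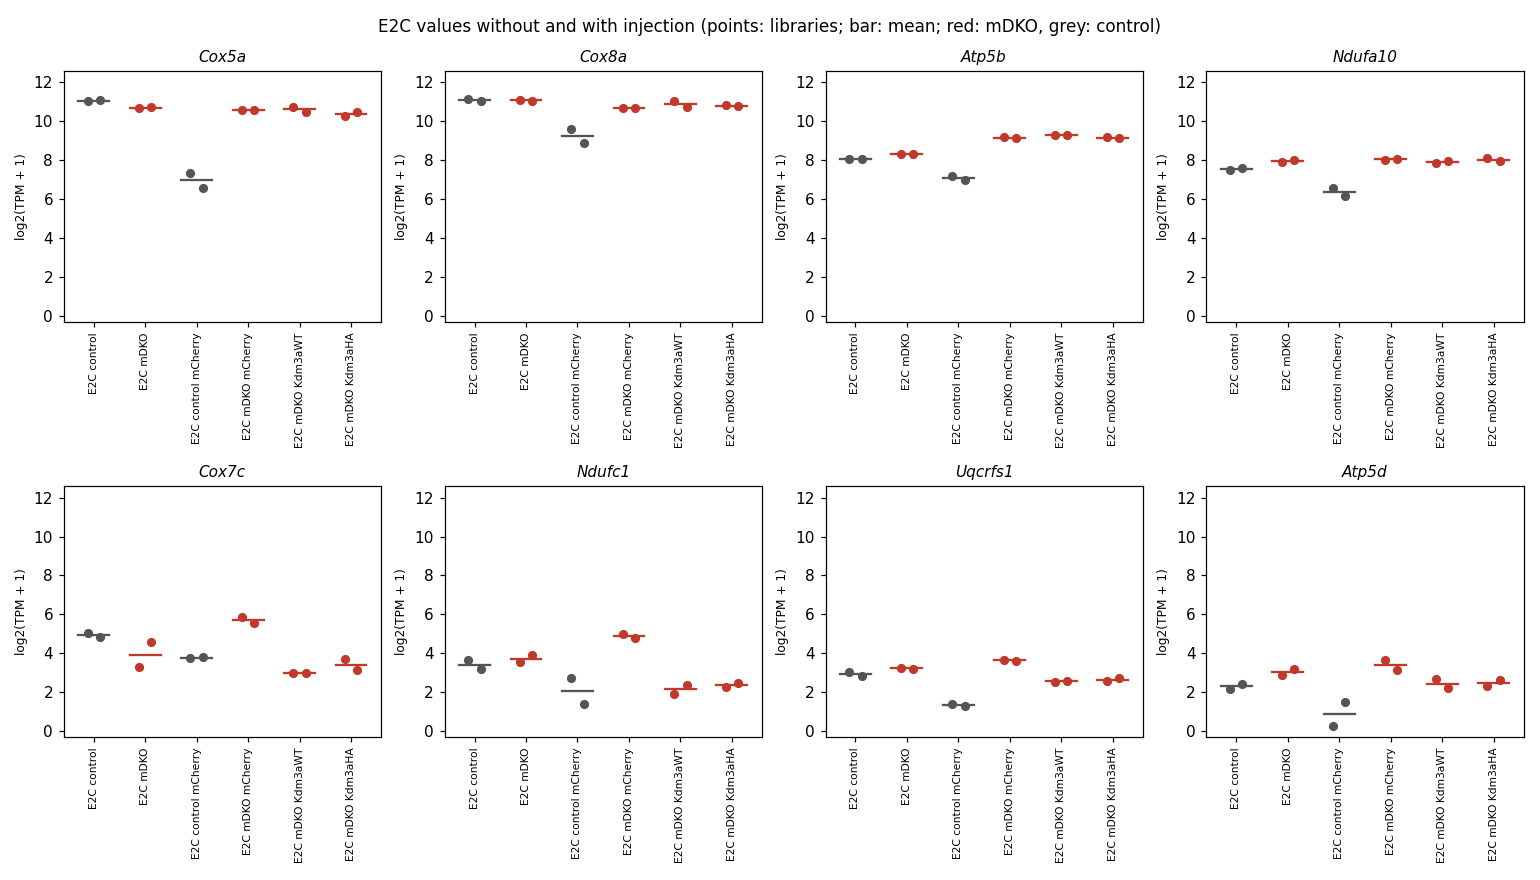
Level per library (vertical axes, log2(TPM + 1); points are libraries, bars group means) of 8 members in the 6 E2C groups with and without injection; panels were chosen after the values were seen. Cox5a, Cox8a, Atp5b and Ndufa10 are low in control mCherry, and Cox7c, Ndufc1, Uqcrfs1 and Atp5d are higher in mDKO mCherry than in the other injected groups.

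In mDKO embryos given Kdm3aWT more members were called lower than higher against mDKO mCherry. Of 82 members 21 were lower with Kdm3aWT, beside 10.8% of all genes tested, and Cox6c alone was higher (0.46 ± 0.07), beside 0.949%. The other 60 were not called, and 61 of the 82 had a negative fold change, as had 8099 of all 10960 genes tested. Cox7c fell from 57.4 and 46.8 TPM to 7.01 and 7.02 (-2.72 ± 0.19, adjusted p = 1.50e-04), and Ndufc1 from 30.3 and 27.0 to 2.75 and 4.20 (-2.75 ± 0.37). Atp5j fell by 1.84, Ndufb4 by 1.62, Ndufb7 by 1.57, Uqcrb by 1.10, Uqcrfs1 by 1.09 and Cox4i1 by 1.04. Cox6b2, at 338 and 440 TPM, was not called against mDKO mCherry (0.31 ± 0.13, adjusted p = 0.141). Cox5a was not called either (0.02 ± 0.22).

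With Kdm3aHA 12 members were lower, beside 9.29% of all genes, and 2 were higher, beside 1.54%. Cox7c was at 11.9 and 7.85 TPM (-2.31 ± 0.19, adjusted p = 2.57e-04) and Ndufc1 at 3.89 and 4.61 (-2.50 ± 0.37). Ndufs6 fell by 1.33, Atp5o by 1.33, Ndufb10 by 1.15 and Cox4i1 by 0.77, and Uqcrfs1 and Atp5j fell too. Ndufs5 rose by 1.17 ± 0.27 and Cox6c by 0.41 ± 0.07. Cox6b2 stood at 366 and 407 TPM and was not called (0.32 ± 0.13). These 2 comparisons and the one of genotype share the mDKO mCherry libraries, so their values are not independent of each other.

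Compared directly, Kdm3aWT and Kdm3aHA differed in 4 members, all lower with Kdm3aWT, beside 1.97% of all genes, and none was higher, beside 1.32%. Ndufb4 was at 10.9 and 13.7 TPM under Kdm3aWT and 27.8 and 36.5 with Kdm3aHA (-1.31 ± 0.16, adjusted p = 0.0146). Sdhd was at 43.1 and 42.9 against 76.7 and 71.0 (-0.77 ± 0.10), Sdhc differed by -0.62 and Atp5h by -0.58. None of the 4 calls held when only the 4 libraries compared were fitted, and 0 members were lower without Kdm3aHA replicate 2, 1 without Kdm3aWT replicate 1 or Kdm3aHA replicate 1 and 9 without Kdm3aWT replicate 2, where 3 were higher. At an unadjusted p under 0.05 there were 21 of 82 members and 2537 of all 10960 genes.

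The mDKO mCherry libraries carried much of the counts against them. Without replicate 1 of that group 5 members were lower with Kdm3aWT and 2 with Kdm3aHA, and without replicate 2 the counts were 10 and 7. Without Kdm3aHA replicate 1 there were 7 lower with Kdm3aHA. Cox7c was called in both comparisons under every one of these, while Ndufc1 with Kdm3aWT had an adjusted p of 0.0504 without mDKO mCherry replicate 1. The calls of Sdhd, Uqcrb, Uqcrq, Cox6c and Atp5o with Kdm3aWT, and of Ndufs5, Ndufs6, Ndufb10, Uqcrfs1, Cox6c, Atp5o and Atp5j with Kdm3aHA, were lost whichever of those libraries was left out. Uqcrfs1 and Atp5h with Kdm3aWT and Cox4i1 with Kdm3aHA were lost without replicate 1.

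All genes moved with the scaling here. The median of all genes with Kdm3aWT against mCherry was -0.19 as deposited and 0.00 after size-factor scaling, and that of the members -0.28 and -0.05. After that scaling 5 members were higher and 16 lower with Kdm3aWT, and 4 higher and 9 lower with Kdm3aHA. For Kdm3aWT against Kdm3aHA the median of all genes moved from -0.10 to 0.00 and that of the members from -0.09 to 0.04. Cumulus and granulosa genes, mostly Serpine2, summed to between 236 and 254 TPM in the Kdm3aWT and Kdm3aHA groups. Blood cell genes summed to between 0.0611 and 2.07 there. Both sums were under those of mDKO mCherry, and their part was not tested.

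In wild-type 4-cell embryos no member was called. With Kdm3aWT against mCherry 0 of 81 were higher and 0 lower, beside 0% of all 9669 genes tested in each direction, and the same counts and percentages, 0 and 0%, held for Kdm3aHA against mCherry and for Kdm3aWT against Kdm3aHA. By limma at an unadjusted p under 0.05 there were 5, 2 and 1 members, and 776, 264 and 227 of all genes. Uqcrb, for example, was at 1525 and 2141 TPM under mCherry, 854 and 1055 with Kdm3aWT (-0.93 ± 0.29, adjusted p = 0.574) and 1982 and 1190 with Kdm3aHA. Kdm3aHA overlapped the mCherry pair and Kdm3aWT did not. At this stage the Kdm3a transcript itself lay between 53.4 and 108 TPM in the Kdm3aWT libraries. Kdm3aHA libraries held 70.5 to 161 TPM of it, and the mCherry pair 6.24 to 21.8. Both constructs were thus above mCherry, but far under the 2315 to 4122 TPM of mDKO E2C embryos given them. The 4C comparisons therefore did not test a Kdm3a level like that at E2C.

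Several members had their highest levels of all groups at 4C. Uqcr10 lay between 1440 and 2603 TPM, Atp5j between 1501 and 3093, Cox7c between 1352 and 3011 and Ndufc1 between 692 and 1563. Sdha, at 5.47 to 29.8 TPM, and Cox6a2 stayed low. The mCherry replicates differed for many members, as in Atp5b at 828 and 265 TPM and Ndufs1 at 43.6 and 10.1. Without mCherry replicate 1, 2 members were called higher and 8 lower with Kdm3aWT, and 1 higher with Kdm3aHA. The member median with Kdm3aWT was -0.34 as deposited and -0.90 after size-factor scaling, which moved the median of all genes from 0.44 to 0.02. For Kdm3aHA the members moved from -0.09 to -0.54 and all genes from 0.35 to 0.01.

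Other genes of the pathway were read from lists of assembly factors, carriers with the tricarboxylic acid cycle, and regulators of mitochondrial gene expression. At L2C 13 of 45 tested assembly factors were lower in mDKO and 6 higher, with a median of -0.30, shares close to those of all genes (23.3% lower and 19.1% higher). Ndufaf1, which assembles complex I, fell by 2.18, and Cox17 and Sco2, which carry copper to complex IV, by 1.81 and 1.9. Uqcc3, for complex III, fell by 1.67, and Sdhaf4, for complex II, rose by 1.22 ± 0.16.

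Of 27 carriers and cycle enzymes 8 were lower and 9 higher, beside the same 23.3% and 19.1% of all genes. Cycs, the somatic cytochrome c, fell by 1.04, Slc25a3, the phosphate carrier, by 1.35 and Idh3g by 1.80. Fh1, fumarate hydratase, rose by 1.26 ± 0.30, Dlst by 0.94 and Idh3a by 0.93. Of 16 regulators 8 fell and none rose, beside those same shares. Ssbp1, which binds single strands of mitochondrial DNA, fell by 1.51, Pprc1, a coactivator related to PGC-1, by 1.34, Yy1 by 1.25 and Gabpa by 0.81. Nrf1 itself was not called (-0.40, adjusted p = 0.191).

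In the injected E2C comparison 13 carriers and cycle enzymes were higher in mDKO and 2 lower of 27, beside 26.9% and 20.0% of all genes. Slc25a3 rose by 3.18 ± 0.15 and Cycs fell by 0.94. Of 39 assembly factors 11 rose and 8 fell, counts close to those shares, and of 14 regulators 3 rose and 1 fell.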

How the data were processed

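RNA-seq of polyA RNA was analysed from 26 libraries, 2 in each of 13 groups set by the sample labels. The values are TPM as deposited by the authors, 1 column per library in 3 tables of 24412 symbols, and 0 columns were left unmatched to a sample. Tools listed by the submitters' processing notes, with no roles, are RSEM 1.3.1, STAR 2.7.10b, SAMtools 1.9 and Bowtie2 2.3.4.1, and the build listed is mm10. No source used here gives the annotation, the filters or the strand setting. The labels' protocols give TruSeq Stranded mRNA for the oocytes and SMART-Seq for E2C and 4C, so MII was not tested against embryos. No source used here gives the kit of the L2C libraries, so stage and kit may differ together between E2C and L2C and cannot be told apart there.

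Tests used limma 3.58.1 (lmFit, eBayes with a trend) in R 4.3.3 on log2(TPM + 1), for genes that reached 1 TPM in 2 or more of the libraries fitted. The tests were two-sided with Benjamini-Hochberg adjustment over all genes tested, and calls were made at an adjusted p under 0.05. Genotype comparisons without injection used the 4 libraries of a stage. Stage comparisons and the interaction used the 12 uninjected libraries, the injected E2C comparisons their 8 libraries and the 4C comparisons their 6. No exact permutation test of 2 against 2 can go below p = 0.333. Nothing in the labels tells if pools came from separate females or days, so p-values measure only the spread between these pools, which may be technical. The code was tested on simulated data.

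Named genes were, for each comparison and complex, up to 3 called members in each direction with the largest fold change among those with a mean TPM of at least 5, the 2 members of each complex with the highest median, and the isoform pairs. The members and lists were chosen with earlier results of these data known. Genes other than these were named after their values were seen. The values of 1 member are not reported here, and it stays in the counts. Promoter windows, gene positions and symbols came from RefSeq for GRCm38.p6, where all 84 members were found, and exon overlaps from GENCODE M21. Near-identical pseudogenes of several members exist, and no source used here says how reads were shared with them. Alternatives were a pseudocount of 0.1, no filter on low values, size-factor scaling, a replicate block, other sets of libraries in the fit, and leaving out each library in turn.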

Additional observations from a re-analysis of the deposited data

Results flagged for a closer look

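The difference of the mDKO effect between the late and the early 2-cell stage was past the threshold in the interaction test of limma for 32 members, lower at L2C for 28 and higher for 4. Each value is the effect at L2C minus the effect at E2C on the log2(TPM + 1) scale.

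In complex I the difference was -1.67 for Ndufs7, -1.77 for Ndufa11, -1.71 for Ndufc1 and -1.56 for Ndufb7. Ndufa8 and Ndufa6 differed the other way, by 1.01 and 0.82. In complex III it was -1.55 for Uqcrb, -0.97 for Uqcrfs1 and -0.95 for Uqcr10. Complex IV gave -1.29 for Cox6a1, -1.27 for Cox8c, -1.15 for Cox4i1 and 0.41 for Cox6b2. It also gave -3.53 for Cox7b2 and -3.10 for Cox4i2, both low in TPM, and their outcome under the alternatives is not given here. The ATP synthase gave -2.29 for Atp5d, -1.44 for Atp5a1 and -1.37 for Atp5j. Atp5sl, placed with it by symbol only, gave 0.83. Of 13 alternatives, the call was lost in 12 for Ndufa6 and Atp5sl, 11 for Cox8c, 10 for Cox6a1, 9 for Uqcr10, 8 for Cox6b2 and 3 for Ndufa8.

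Cox5a went opposite ways in the 2 experiments at E2C. It was lower in mDKO by a log2 fold change of -0.36 without injection, where both mDKO libraries lay under both controls but the call was lost in 5 of 9 alternatives (adjusted p up to 0.279 by limma), and higher by 3.63 with mCherry injection, where both lay above. This difference between the experiments was not tested. Cox5a was not alone in this. Where the genotypes did not overlap in either experiment, 25 members were higher in both, 5 lower in both and 14 went opposite ways. The same counts over all genes are not given here, so these are a description.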

How the results depend on the processing

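Of 244 counts of called members recomputed under the alternatives, 184 stayed within 1.5 times the value reported, 41 were smaller and 19 larger. With low values kept in, 0 members were higher at MII, 1 higher and 1 lower at E2C, 6 higher at L2C, 1 higher in the interaction, 1 higher with Kdm3aHA and 1 lower with Kdm3aWT against Kdm3aHA. In the interaction 2 were higher with a pseudocount of 0.1 and 1 with size-factor scaling, which also gave 5 higher with Kdm3aWT and 4 with Kdm3aHA against mCherry. With all 12 uninjected libraries in 1 fit 18 were higher at MII. On the 4 libraries compared alone, 6 were higher with Kdm3aHA and 0 lower with Kdm3aWT against Kdm3aHA.

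Leaving out single libraries gave ranges of 0 to 8 higher at MII (1 lower throughout), 1 to 13 higher and 1 to 7 lower at E2C, and 6 to 12 higher and 34 to 41 lower at L2C. From E2C to L2C they were 45 to 48 higher and 15 to 19 lower in control, and 33 to 34 and 14 to 18 in mDKO. The interaction had 0 to 3 higher and 18 to 24 lower. Injected mDKO against control had 24 to 33 higher and 7 to 8 lower, Kdm3aWT against mCherry 0 to 4 and 5 to 20, Kdm3aHA against mCherry 0 to 1 and 2 to 11, and Kdm3aWT against Kdm3aHA 0 to 3 and 0 to 9. At 4C they were 0 to 2 higher and 0 to 8 lower with Kdm3aWT, 0 to 1 higher and 0 lower with Kdm3aHA, and 0 between the constructs. Where 1 library was left in a group, it was assumed to vary like the others.

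Samples of a comparison share only a replicate number. The replicate differences of its groups correlated across genes by 0.36 at MII, -0.02 at E2C and 0.05 at L2C, and by -0.12 to 0.19 in the others. The replicate block raised the calls to 31 higher and 2 lower at MII and 14 higher and 7 lower at E2C. Elsewhere its counts stayed within 1.5 times. For Kdm3aWT against Kdm3aHA, where the correlation was -0.12, a crossed pairing chosen after seeing the data gave 0 higher and 3 lower. No member called and named by the rule changed direction under the alternatives run for it. The genes of the pathway lists were not recomputed under alternatives. Depth is unknown in TPM, so no limit of detection can be given for genes listed at 0.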

Other observations

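From MII oocytes to early 2-cell embryos the control values of 50 of the 84 members were higher by at least 1 on the log2(TPM + 1) scale and those of 4 were lower by at least 1, with a median of 1.55. The libraries of these stages were made with different kits, so this step was not tested. By complex the median was 1.73 in complex IV, 1.63 for the accessory subunits of complex I, 1.48 in complex III, 1.07 in the ATP synthase, 0.88 in complex II and 0.63 for the core subunits of complex I. Cox5a went from 158 and 146 TPM in control oocytes to 2121 and 2155 in control E2C embryos, and Uqcrh from 55.0 and 44.4 to 639 and 598. Sdha went the other way, from 182 and 206 TPM to 81.5 and 68.9, and so did Atp5b, from 512 and 527 to 264 and 266.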
